A study of Gallus gallus with 32 samples.

Results

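The lean line of chickens was followed over the whole growth span of the study, with pituitary RNA of 3 samples at week 7 set against that of 4 samples at week 1. The members are the samples labelled lean at week 7, replicates 1, 3 and 4, and lean at week 1, replicates 1 to 4, which makes 7 of the 32 samples. Week 7 replicate 2 of the lean line was left out, since its scan is also filed under the fat line. Between those files 54.1% of spots have the same area and quality score, while no other 2 arrays share more than 0.844%. The study measured pituitary glands of a Fat and a Lean line at weeks 1, 3, 5 and 7, with 4 samples per line and age that the labels call biological replicates. Both lines went through 7 generations of selection in opposite directions on the weight of abdominal fat, and all birds were raised as standard broilers, with no other treatment. RNA of each sample was amplified, labelled with Cy3 and put on a spotted cDNA array together with a Cy5-labelled pool of all 32 RNAs. Values below are therefore log2 of the sample's signal over that of the pool, a scale that does not rank genes by abundance. The labels give neither the sex of the birds nor the number of birds behind a sample.

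The anterior pituitary makes the protein hormones that drive growth, the thyroid, the adrenal cortex and the gonads. Each hormone comes mostly from its own cell type and is stored with granins in dense granules until a hypothalamic signal releases it. Convertases and carboxypeptidases cut some of them, such as corticotropin, from a larger precursor. Genes of the division cycle are transcribed mostly in dividing cells, and globins in red blood cells, which are nucleated in birds and stay in the tissue with its blood. In whole glands, fewer cells of a type and less RNA per cell cannot be told apart, and this holds for every gene below.

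The depth of an array is the number of usable spots, which was 14175 to 16134 of 19200 on these 7 arrays. Of the 7 listed hormone genes 6 had a tested probe, and each was measured on all 7 arrays except GH, which was missing on week 7 replicate 3. A usable spot does not show which tissue was sampled, so this is no check of the label. Lean week 7 replicate 3 stood apart from the other arrays. The median absolute deviation of its log2 ratios was 0.709, against 0.176 to 0.515 on the other 29 arrays used. Its ratios correlated at 0.697 with the mean of the other arrays of its group, against 0.674 and 0.694 for week 7 replicates 1 and 4, and the slope of its difference from week 1 on that of the other 2 arrays was 1.24 over all probes. Much rests on this array: of the 79 named genes that passed, 57 did so only with it, and the change or adjusted p without it is given beside these. By the same deviation, replicate 3 was also the widest array of its group at weeks 1, 3 and 5. It was at 0.329, 0.386 and 0.349 in the lean line and at 0.414, 0.360 and 0.348 in the fat line. At fat week 7 replicate 4 was the widest. Per the file headers, no day was shared by lean arrays of both ages, so within-day values cannot be had and day and age cannot be told apart inside the lean line.

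At week 7 both measured globins, 10 of 27 measured mitosis genes and 3 of 30 genes of DNA replication fell in the lean pituitary relative to week 1. Without week 7 replicate 3 both globins, 4 mitosis genes and 2 replication genes passed. Of these 2, RRM2 was among the 3 and MCM2 was not. PBK, a mitotic kinase, was 3.57-fold lower and the beta globin HBBA 3.01-fold lower. Of 11 measured prohormone processing and granule genes 5 rose, none of which passed without week 7 replicate 3, and no hormone gene passed the test. Of 14568 probes tested, 830 passed at a Benjamini-Hochberg adjusted p under 0.05 in limma, 561 upward and 269 downward, which is 5.7% of probes. A further count, that of probes with an unadjusted p under 0.05, was 4088. By the brightest probe of each of 5713 genes, 242 genes rose (4.24%) and 124 fell (2.17%). Without week 7 replicate 3, 114 probes passed (81 upward, 33 downward), 109 of them among the 830, and 44 genes were higher (0.77%) and 16 lower (0.28%). All 830 probes kept their sign without that array. They were selected with it and share the remaining arrays, so this is no independent check. By gene, 59 passed both ways. The split between directions depended on the scaling: 48 of 91 called probes were higher when ratios were scaled between arrays, and 471 of 1167 when arrays were only centred on their medians. With the header day as a fixed term, estimated through the other groups, limma called no probe, with 2153 at an unadjusted p under 0.05. As a random block it left 769.

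Mitosis genes made the clearest downward group. Of 27 measured members 21 were lower at week 7 and 10 fell, with a median change of -0.43, beside 2.17% of all genes and a median over all genes of -0.0406. Without week 7 replicate 3 the median was -0.40 and 4 passed, beside 0.28% of all genes. PBK, a kinase active in mitotic cells, stood at -0.53, -1.17 and -1.04 on week 7 replicates 1, 3 and 4, against 0.58, 0.95, 1.00 and 1.17 on the week 1 arrays. Every week 7 array lay below every week 1 array. The rule that names the 12 largest rises and 12 largest falls requires such a separation, so it is no added evidence for them. The change was -1.84 (SE 0.20, 3.57-fold lower, limma adjusted p = 1.86e-05), and -1.71 without replicate 3 (adjusted p = 0.000588).

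CCNB1, cyclin B1, the partner of the kinase that starts mitosis, was at -0.36, -0.64 and -0.86 at week 7, against 1.04, 0.91, 1.13 and 0.97 at week 1. The groups were separated by a gap wider than the range of either one, and the change was -1.63 (SE 0.20, adjusted p = 3.5e-05; -1.62 without replicate 3). TOP2A, the topoisomerase that untangles chromosomes, was at -0.47, -1.06 and -0.82 at week 7, against 0.48, 0.41, 0.95 and 1.32 at week 1. It fell by 1.57 (adjusted p = 0.000386; 0.0104 without replicate 3), and a second, dimmer probe fell by 0.81 (-0.63 without replicate 3, adjusted p = 0.265). KIF2C, a kinesin that depolymerises spindle microtubules, fell by 1.37 (adjusted p = 7.96e-05; 0.0023 without replicate 3). These 4 genes are those of the list that passed with and without replicate 3.

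KNSTRN, a kinetochore protein, had the largest fall, -2.34 (adjusted p = 0.0282). Its 4 week 1 values were 5.53, 1.11, 1.00 and 0.66, so 1 array sets much of the size of the change, and the call was lost without week 7 replicate 3 (adjusted p = 0.11). The other members that fell were CENPH and KNTC1, kinetochore proteins, at -0.89 and -0.50, KIF20A, a kinesin of cell cleavage, at -0.63, and NCAPG and NCAPD2, condensin subunits, at -0.58 and -0.54. None of these 5 passed without replicate 3, where they were at -0.62, -0.51, -0.51, -0.40 and -0.54 (adjusted p = 0.147 to 0.278). None of the 6 members with higher values at week 7 passed, and MAD2L1, a spindle checkpoint protein, had the highest change of these at 0.43 (adjusted p = 0.09). CDK1, the mitotic kinase itself, differed by -0.28 and did not pass.

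DNA replication had fewer calls. Of 30 measured members 18 were lower, 12 were higher and 3 fell, with a median of -0.25, beside 2.17% of all genes. Without replicate 3 the median was -0.11 and 2 passed, beside 0.28% of all genes. RRM2, the small subunit of ribonucleotide reductase, which supplies deoxynucleotides, was at -0.48, -0.29 and -1.51 at week 7, against 1.03, 0.94, 1.17 and 1.01 at week 1. All week 7 arrays were low, with replicate 4 the lowest, and the change was -1.80 (SE 0.28, adjusted p = 0.000407; 0.00119 without replicate 3). MCM6 and MCM5, subunits of the replicative helicase, fell by 0.65 (adjusted p = 0.0062) and 0.48 (adjusted p = 0.0401), neither of which passed without replicate 3 (-0.55 and -0.45, adjusted p = 0.0904 and 0.235). MCM2, of the same helicase, differed by -0.70 and passed only without replicate 3 (adjusted p = 0.057 with it and 0.0312 without). PCNA, the sliding clamp, was higher by 0.23 and did not pass.

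**Figure D1:**
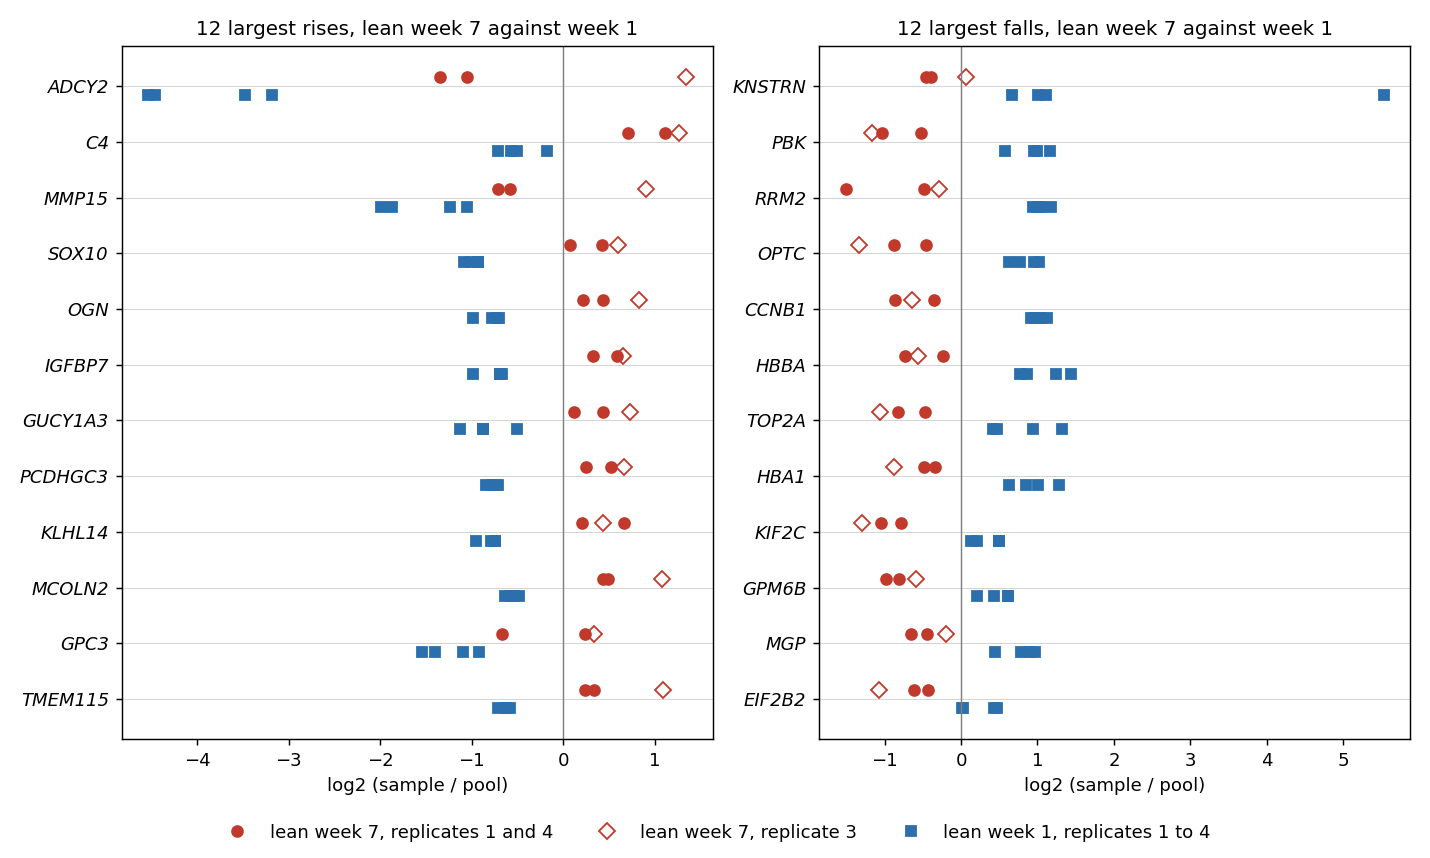
Log2 ratio of sample over pool on each array for the 12 largest rises (left) and the 12 largest falls (right) in the lean line. Red marks are the 3 week 7 arrays, with replicate 3 as an open diamond, and blue squares are the 4 week 1 arrays; KNSTRN at 5.53 on 1 week 1 array and ADCY2 at 1.34 on week 7 replicate 3 lie far from the rest of their groups.

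Both measured globins fell. Of 12 measured red cell markers 10 were lower and 4 fell, with a median of -0.26, beside 2.17% of all genes. Without replicate 3 the median was -0.13 and the globins alone passed, beside 0.28% of all genes. HBBA, a beta globin chain, was at -0.23, -0.56 and -0.73 at week 7, against 0.78, 0.86, 1.44 and 1.24 at week 1. No week 7 value came near a week 1 value, and the change was -1.59 (SE 0.23, 3.01-fold lower, adjusted p = 0.000236; 0.00412 without replicate 3). HBA1, an alpha globin chain, was at -0.34, -0.88 and -0.48 at week 7, against 0.85, 0.63, 1.00 and 1.28 at week 1, a change of -1.51 (SE 0.22, adjusted p = 0.000244; 0.00667 without replicate 3). The anion exchanger SLC4A1 and the linker histone H1F0 fell by 0.67 and 0.78, and their week 7 replicate 3 values, -1.18 and -1.59, were the lowest of the 7 arrays. Neither passed without that array (-0.48 and -0.36, adjusted p = 0.395 and 0.581). The mean over the red cell list on single arrays was -0.61 to -0.18 at week 7, against 0.05 to 0.10 at week 1. The part of red cell RNA in the other changes was not tested.

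Prohormone processing and granule cargo went the other way. Of 11 measured members 9 were higher and 5 rose, with a median of 0.52, beside 4.24% of all genes. Without replicate 3 the median was 0.40, and none passed. CPE, the carboxypeptidase that trims prohormones after cutting, was at 0.94, 0.94 and 0.70 at week 7, against 0.05, -0.04, 0.59 and 0.08 at week 1. The 3 week 7 arrays were the highest, and the change was 0.69 (SE 0.15, adjusted p = 0.00913; 0.078 without replicate 3). A second probe rose by 0.50 (adjusted p = 0.243 without replicate 3), and the dimmest pair were at 0.49 and 0.01 and did not pass.

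PCSK1, the convertase that cuts prohormones, was at 1.07, 0.69 and 0.57 at week 7, against -0.31, -0.40, -0.09 and -0.11 at week 1. Its groups did not overlap, and it rose by 1.00 (SE 0.27, adjusted p = 0.0292; 0.126 without replicate 3). SCG5, a chaperone of a convertase, rose by 0.76 (adjusted p = 0.0181; 0.0524 without replicate 3), with replicate 3 the lowest of the 3 week 7 arrays at 0.30. SCG2, a granin, rose by 0.46 (adjusted p = 0.0487; 0.40 without replicate 3, adjusted p = 0.33). CHGB, another granin, differed by 1.03 without passing (adjusted p = 0.0643), and PCSK2, a second convertase, by 0.52. CHGA, chromogranin A, and PAM, the amidating enzyme, were at 0.02 and 0.18. SCG3, a granin involved in sorting other granins, rose by 1.08 (adjusted p = 0.014; 0.107 without replicate 3), at a probe that shares its pattern with unrelated genes as described further on. The median of the other 10 genes was 0.49. Among these PCSK1 correlated at 0.75 with the same pattern, just under the cut of 0.8 used for that set.

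No hormone gene passed, of 6 measured, beside 4.24% of all genes that rose and 2.17% that fell. A list this short with no call is near those shares. TSHB, the thyrotropin beta chain, was at 1.02, 1.08 and 0.44 at week 7, against 0.03, -0.70, 0.04 and 0.10 at week 1. The groups did not overlap, but the difference of 0.98 (SE 0.36) had an adjusted p of 0.0948. FSHB, the follitropin beta chain, was at -1.33 and -1.53 on week 7 replicates 1 and 4 and close to the pool on replicate 3, against 0.42, 0.11, 0.07 and 0.84 at week 1. All 3 week 7 arrays lay below week 1, and the difference was -1.31 (SE 0.52, adjusted p = 0.113), or -1.79 without replicate 3 (adjusted p = 0.181). GH, growth hormone, was at -0.39 and -1.01 on the 2 week 7 arrays that measured it, against 0.12, -0.86, -0.07 and -0.01 at week 1, and the groups overlapped (difference -0.50, SE 0.37). POMC, the precursor of corticotropin, CGA, the shared alpha chain, and PRL, prolactin, differed by -0.15, -0.07 and -0.02 with overlapping groups, and the SEs were 0.14, 0.32 and 0.26. A second probe of GH was at 0.14 and one of POMC at -0.29.

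Regulators of the hormone cells did not pass either, beside 4.24% of all genes that rose and 2.17% that fell. Lists of 10 and 13 genes with no call are near those shares. Of 10 measured pituitary transcription factors 6 were higher and none passed, and their median was 0.05 (-0.09 without replicate 3). PITX3, a homeodomain factor, was at -0.36 (adjusted p = 0.0648), NR5A1, the steroidogenic factor of gonadotropes, at 0.36, and POU1F1, which directs GH, PRL and TSHB cells, at 0.33. A second NR5A1 probe was at -0.40, the opposite sign. Of 13 measured receptors for hypothalamic, gonadal, adrenal and thyroid signals 7 were higher and none passed. CRHR2, a receptor for corticotropin-releasing peptides, had the largest difference at 0.86 (SE 0.42, adjusted p = 0.182), with no overlap between groups. NR3C2, the mineralocorticoid receptor, was measured on 2 week 7 arrays, at 1.37 on replicate 3 and 0.21 on replicate 4, and differed from week 1 by 0.61, or by 0.04 on replicate 4 alone.

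**Figure D2:**
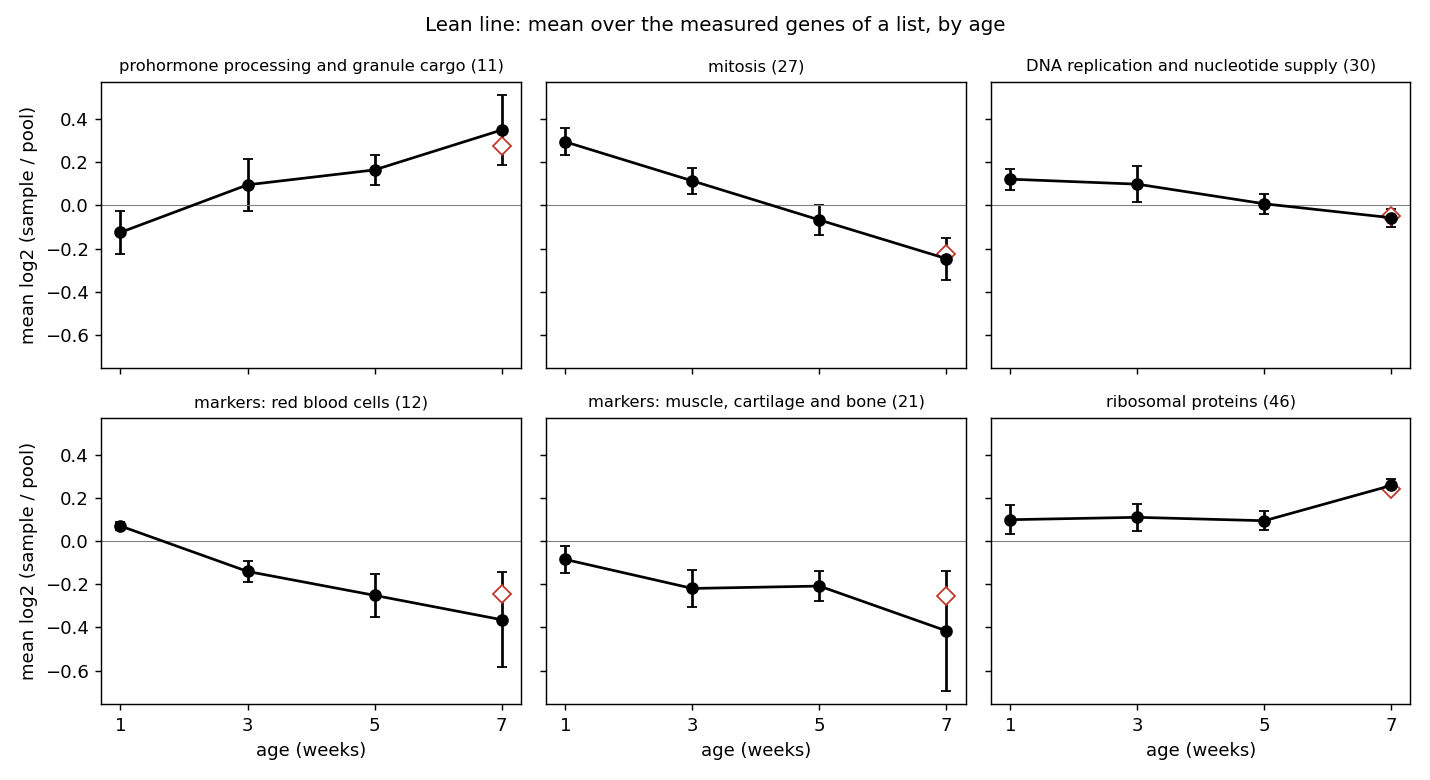
Mean log2 ratio over the measured genes of 6 lists in the lean line at weeks 1, 3, 5 and 7 (points, mean over arrays; bars, SD over 4 arrays, 3 at week 7), with the week 7 mean without replicate 3 as an open diamond. Mitosis runs from 0.30 at week 1 to -0.25 at week 7 in even steps, and the week 7 value of the red cell list and of the muscle, cartilage and bone list is nearer to week 5 without replicate 3.

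The ages between show how the end points were reached, given here as descriptions. The mean over the mitosis list was 0.30 ± 0.06, 0.11 ± 0.06, -0.07 ± 0.07 and -0.25 ± 0.10 at weeks 1, 3, 5 and 7 (SD, n = 4, 4, 4 and 3). Each age thus lay below the one before by more than the SD of either. The red cell list ran 0.07, -0.14, -0.25 and -0.36, but without replicate 3 its week 7 mean was -0.24, no lower than week 5. HBBA had mean ratios of 1.08, -0.18, -0.66 and -0.51 at the 4 ages, and TOP2A 0.79, -0.22, -0.91 and -0.79, so neither was higher at week 5 than at week 7. PBK went on through all ages, at 0.92, 0.48, -0.04 and -0.91, and so did CCNB1, at 1.01, 0.45, 0.09 and -0.62. The granule list was at -0.13, 0.10, 0.17 and 0.35, or 0.27 at week 7 without replicate 3. CPE was at 0.17 at week 1 and already at 0.71 and 0.75 at weeks 3 and 5, close to its 0.86 at week 7.

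The 12 largest rises were of mixed kinds. ADCY2, an adenylyl cyclase that makes cyclic AMP, was at -1.05, 1.34 and -1.34 at week 7, against -3.18, -3.48, -4.54 and -4.46 at week 1. Replicate 3 was far above the other 2 week 7 arrays, which still lay above all of week 1. The change was 3.56 (SE 0.73, 11.8-fold, adjusted p = 0.00485), and 2.72 without replicate 3 (adjusted p = 0.103). MMP15, a matrix metalloproteinase anchored in the cell membrane, rose by 1.41 (adjusted p = 0.0322; 0.398 without replicate 3), while its second probe was at -0.18. On 22 arrays of the other groups the deviations of the ADCY2 and MMP15 probes from their group means correlated at 0.874.

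C4, a complement component, was at 1.11, 1.26 and 0.71 at week 7, against -0.50, -0.57, -0.72 and -0.18 at week 1. It rose by 1.52 (SE 0.34, adjusted p = 0.00997; 0.101 without replicate 3), and its second probe was at 0.26 and did not pass. MCOLN2, a cation channel of endosomes and lysosomes, was at 0.49, 1.08 and 0.43, against -0.64, -0.48, -0.57 and -0.54 at week 1. It rose by 1.23 (SE 0.17, adjusted p = 0.000244), and by 1.02 without replicate 3 (adjusted p = 0.00647). GUCY1A3, a subunit of soluble guanylate cyclase, rose by 1.27 (adjusted p = 0.00232; 0.0415 without replicate 3). GPC3, a glypican of the cell surface, rose by 1.21 at its brightest probe and 1.51 at another, and only the second passed without replicate 3 (adjusted p = 0.0587 and 0.0158). TMEM115, a Golgi membrane protein, rose by 1.20 and did not pass without replicate 3 (adjusted p = 0.101).

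Of the 12, 5, namely SOX10, OGN, IGFBP7, PCDHGC3 and KLHL14, belong to a set of probes with almost the same pattern over the arrays. The set was found after the values were seen, and no test was run on it. On the 23 arrays outside this comparison, 55 probes had deviations from their group means that correlated above 0.8 with those of KLHL14, a kelch-like protein: OGN, a matrix proteoglycan, at 0.96, IGFBP7, a secreted binding protein, at 0.96, PCDHGC3, a protocadherin, at 0.92, and SOX10, a transcription factor of glia, at 0.89. Of the 5, PCDHGC3 alone did not pass without replicate 3 (adjusted p = 0.225). The correlated points share arrays, dye and normalization. All 55 probes were higher at lean week 7, with a median of 1.05. Of them 49 passed, beside 3.85% of all tested probes that rose. Without replicate 3, 28 passed, beside 81 upward calls among all 14568 probes. The 55 probes name unrelated genes, among them SCG3, FABP5 and H2AFY, and 19 have no gene symbol. Of the 55, 27 (49.1%) were printed in the third row of their grid block, a row that holds 5.97% of all tested probes. Rows 1 to 3 together held 47 of the 55. The second probe of SOX10 was at 0.00, while that of OGN rose by 1.06 (adjusted p = 0.102 without replicate 3). Of the 242 genes that rose, 32 stood in this set and 210 did not. Many of the named rises among the 210 were also printed in these rows. TMEM115, SDHD, MMP15, PCSK1, GNAS, EIF2S1, EEF1D and HERPUD1 were in the third row of their block. ADCY2, GUCY1A3, SCD5, SCG5 and FZD1 were elsewhere in rows 1 to 3. Others, such as C4, MCOLN2, BTG2 and CPE, were outside rows 1 to 3. Whether the 210 depend on print position was not tested. The cut of 0.8 is not a sharp border. SRSF3, SLC32A1, PCSK1, HERPUD1 and EIF2S1 lay under it at 0.77, 0.77, 0.75, 0.72 and 0.71. What these spots share was not tested.

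Not all probes of a gene moved together. Of 79 named genes that passed, 36 had 1 or more further probes, 50 in all, of which 35 had the same sign as the brightest one. Of these 9 also passed, and no probe passed in the other direction.

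The other large falls were OPTC, GPM6B, MGP and EIF2B2. OPTC, opticin, a small proteoglycan known from the vitreous of the eye, was at -0.46, -1.34 and -0.88 at week 7, against 0.62, 0.95, 0.77 and 1.02 at week 1. The groups lay far apart, the change was -1.73 (SE 0.20, adjusted p = 2.06e-05; 0.000588 without replicate 3), and of 2 further probes one fell by 2.34 and the other was at -0.28. GPM6B, a membrane glycoprotein of glia and neurons, fell by 1.27 (adjusted p = 0.038), and MGP, matrix Gla protein, an inhibitor of calcification, fell by 1.21 (adjusted p = 0.0325). On week 7 replicate 3 both were the highest of the 3 arrays, yet neither passed without it (adjusted p = 0.139 and 0.114), with changes of -1.37 and -1.33. EIF2B2, a subunit of the exchange factor that recharges the translation initiator eIF2, fell by 0.94 (adjusted p = 0.000914; 0.0238 without replicate 3).

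**Figure D3:**
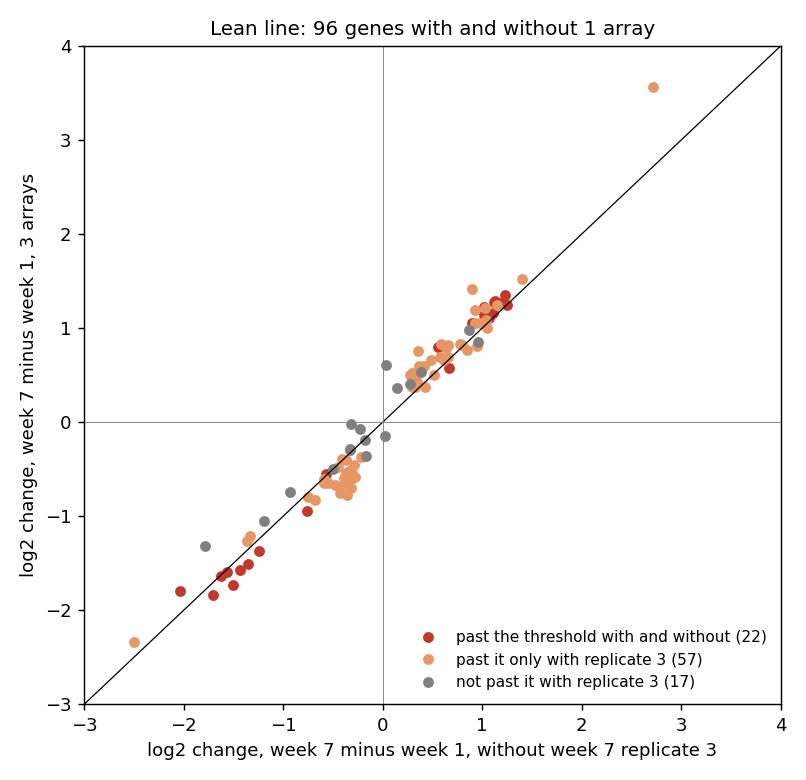
Log2 change from week 1 to week 7 in the lean line for the 96 named genes, with all 3 week 7 arrays (vertical) against the change without week 7 replicate 3 (horizontal); the line marks equal values. Of these genes 22 passed both ways, 57 passed only with replicate 3 and 17 did not pass with it.

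Genes of growth arrest and early response went both ways. BTG2, an antiproliferative factor, rose by 1.14 (adjusted p = 0.00306; 0.0485 without replicate 3), but its second probe was at 0.08. JUN, an early-response transcription factor, was at 0.56, 1.20 and 0.39 at week 7, against 0.06, -0.13, -0.10 and -0.15 at week 1, and rose by 0.80 (adjusted p = 0.00224; 0.0466 without replicate 3), with a second probe rising by 0.70 (0.39 without replicate 3, adjusted p = 0.343). TOB1, related to BTG2, fell by 0.58 (adjusted p = 0.0292), with replicate 3 at -1.01 and the other 2 arrays at -0.14 and -0.04, and without replicate 3 it was at -0.28 and did not pass (adjusted p = 0.413). These 3 were the calls among 13 measured members, beside 4.24% of all genes that rose and 2.17% that fell. BTG2 and JUN were the calls without replicate 3. HLF, a clock output factor, rose by 0.66 and was the only call among 9 clock genes, and was at 0.49 without replicate 3 (adjusted p = 0.137).

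Energy, lipid and protein-making genes moved little as groups. Ribosomal proteins had a median of 0.13 with 35 of 46 higher, and the same 0.13 without replicate 3, but the median was 0.05 when ratios were scaled between arrays and -0.10 in the fat line. RPL19 and RPL23 alone rose, by 0.38 and 0.47, which is close to the 4.24% of all genes, and neither passed without replicate 3 (0.30 and 0.32, adjusted p = 0.373 and 0.338). The list mean was 0.26 ± 0.03 at week 7 and 0.10 ± 0.07 at week 1 (SD, n = 3 and 4). Of 37 genes of oxidative phosphorylation 1 passed: SDHD, a subunit of complex II, rose by 1.16 (adjusted p = 0.000914; 0.0131 without replicate 3), though 2 further probes were at -0.43 and -0.24. FH, fumarase, rose by 0.50 and was the only call among 36 genes of glycolysis and the citrate cycle (0.51 without replicate 3, adjusted p = 0.101). Of 53 lipid genes 31 were lower and 3 rose, a share near the 4.24% of all genes. They were SCD5, a stearoyl desaturase, by 1.05 (adjusted p = 0.00095; 0.0234 without replicate 3), FABP5, a fatty acid binding protein of the set above, by 1.05, and ADIPOR1, an adiponectin receptor, by 0.81. Only SCD5 passed without replicate 3, where FABP5 was at 0.93 and ADIPOR1 at 0.94 (adjusted p = 0.0774 and 0.129). A second SCD5 probe was at 0.24 and did not pass (adjusted p = 0.267).

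Among 41 translation factors and tRNA synthetases 4 rose and EIF2B2 fell. Over all genes 4.24% rose and 2.17% fell, and the counts of this list and the next ones stand beside these shares. The calls among endoplasmic reticulum and splicing genes below are near the share that rose. EIF2S1, a subunit of eIF2, rose by 0.79 and EIF3J, a subunit of eIF3, by 0.60, with second probes at -0.09 and -0.13. The elongation factors EEF1D and EEF1A2 rose by 0.60 and 0.53. None of the 4 passed without replicate 3, where they were at 0.64, 0.42, 0.36 and 0.55 (adjusted p = 0.167 to 0.483). CCT4, a subunit of the cytosolic chaperonin, fell by 0.56 (adjusted p = 0.00164; 0.0112 without replicate 3) and was the only call among 31 chaperones, with a second probe at -0.07. Of 33 proteasome genes PSMA6 and PSMD11 fell, by 0.39 and 0.75, and were at -0.41 and -0.43 without replicate 3 (adjusted p = 0.121 and 0.412). Of 31 mitochondrial ribosomal proteins MRPL39 and MRPS27 fell, by 0.82 and 0.45, with 22 lower, and were at -0.68 and -0.29 without replicate 3 (adjusted p = 0.214 and 0.424). Of 40 genes of folding and export in the endoplasmic reticulum HERPUD1 and SEC61B rose, each by 0.37, and were at 0.42 and 0.32 without replicate 3 (adjusted p = 0.101 and 0.222). SRSF3 was the only call among 44 splicing factors, at 0.66 (0.62 without replicate 3, adjusted p = 0.185), with a second probe at -0.15. H2AFY, a macroH2A histone of the set above, and KAT7, a histone acetyltransferase, rose by 1.10 and 0.43 among 40 chromatin genes, where the linker histone H1F0 fell. H2AFY alone of these passed without replicate 3 (1.07, adjusted p = 0.0422), and KAT7 was then at 0.35 (adjusted p = 0.27).

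Signalling genes gave scattered calls, to be set beside 4.24% of all genes that rose and 2.17% that fell. Beside ADCY2, GNAS, the stimulatory G protein alpha chain, rose by 0.83 (adjusted p = 0.00727; 0.142 without replicate 3), and GNA12 and GNG10, other G protein chains, fell by 0.59 and 0.60, among 28 members. Without replicate 3 GNA12 and GNG10 were at -0.37 and -0.59 and did not pass (adjusted p = 0.488 and 0.238). A second GNA12 probe was at 0.16, the opposite sign. Of the further GNAS probes one rose by 0.54 (0.28 without replicate 3, adjusted p = 0.438) and the other was at -0.04. The frizzled receptors FZD1 and FZD4 rose by 0.82 and 0.83 and ID2, an inhibitor of differentiation factors, fell by 0.55 among 33 members. These 3 were at 0.65, 0.77 and -0.37 without replicate 3, and none passed (adjusted p = 0.233, 0.2 and 0.273). Of the further FZD1 probes one rose by 1.08 (adjusted p = 0.0604 without replicate 3) and the other was at -0.20. Beside IGFBP7, IGFALS, which stabilises circulating growth factor complexes, rose by 0.76 of 10 members of the insulin-like growth factor system, with replicate 3 at 1.54 and groups that overlapped, and was at 0.36 without that array (adjusted p = 0.465). Solute carriers SLC25A5 and SLC30A9 fell by 0.37 and 0.70 of 23 members, the groups of SLC30A9 overlapping, and were at -0.22 and -0.32 without replicate 3 (adjusted p = 0.455 and 0.538). SYT11 and RAB2A, of vesicle traffic, differed by 0.53 and 0.41 and none of that list's 16 members passed.

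**Figure D4:**
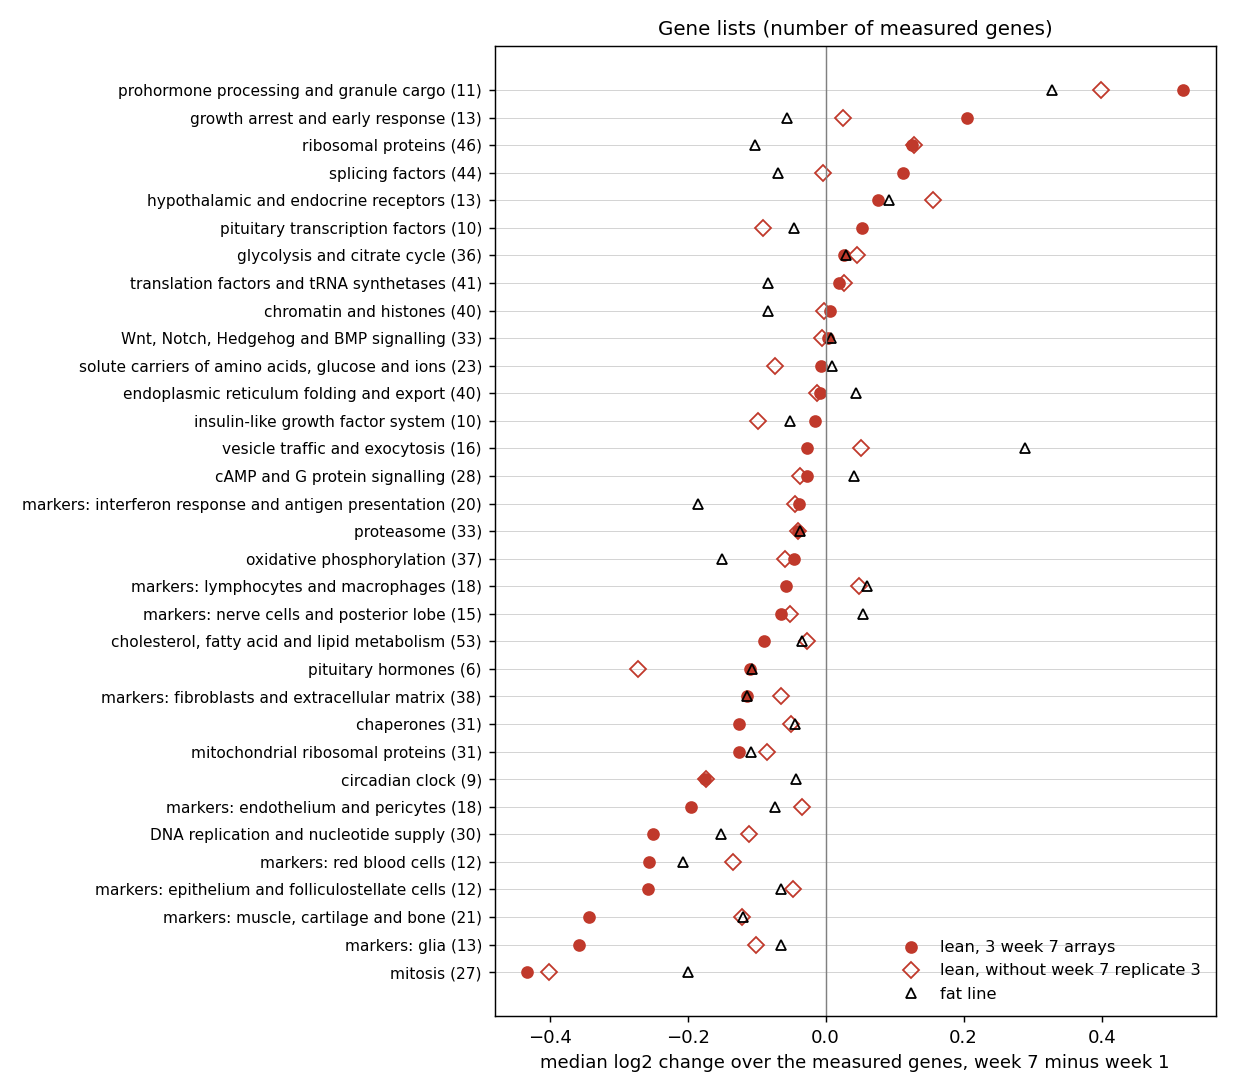
Median log2 change from week 1 to week 7 over the measured genes of each of 33 lists, for the lean line with 3 week 7 arrays (filled circles), the lean line without week 7 replicate 3 (open diamonds) and the fat line (triangles). Mitosis stays lowest with or without replicate 3, at -0.43 and -0.40, while the glia and the muscle, cartilage and bone lists are at -0.36 and -0.34 with it and at -0.10 and -0.12 without it.

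Markers of other cells that a gland sample can hold showed how far a list can rest on 1 array. Muscle, cartilage and bone markers were lower in 20 of 21 cases with a median of -0.34, but the list mean of week 7 replicate 3 was -0.74, and the median without it was -0.12. Of these COL2A1 and COL11A1, cartilage collagens, fell by 0.80 and 0.59, beside 2.17% of all genes that fell. COL2A1 was at -0.69, -0.84 and -0.72 at week 7, against -0.32, 0.42, 0.03 and 0.05 at week 1 (adjusted p = 0.00766; 0.0722 without replicate 3), and COL11A1 was at -0.39 without replicate 3 (adjusted p = 0.424). The 13 measured glial markers had a median of -0.36, or -0.10 without replicate 3. Of these 2 rose and 2 fell, beside 4.24% and 2.17% of all genes. SOX10, which rose at a probe of the set that shares the pattern of KLHL14, alone passed without replicate 3 (1.23, adjusted p = 0.0238). Its second probe was at 0.00. GPM6B, which fell, did not pass without replicate 3. S100B, which also marks folliculostellate cells, fell by 0.62, with replicate 3 at -1.27 and the others at -0.40 and -0.37, and MOG, a myelin protein, rose by 0.82. Neither passed without replicate 3 (-0.32 and 0.79, adjusted p = 0.545 and 0.187). Whether these shifts follow the wider ratios of that array was not tested.

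Of 38 fibroblast and matrix markers OGN rose, and MGP, FBN1, fibrillin, and LAMC1, a laminin chain, fell, the last 2 by 0.52 and 0.54. Over all genes 4.24% rose and 2.17% fell, and the counts of each list in this paragraph stand beside these shares. Without replicate 3 FBN1 and LAMC1 were at -0.34 and -0.31 (adjusted p = 0.429 and 0.386), and OGN alone of the list passed, at a probe of the KLHL14 set. Further LAMC1 probes were at -0.24 and 0.00 and did not pass. Of 18 lymphocyte and macrophage markers 2 rose and 2 fell. CD74, the invariant chain of antigen presentation, was at 0.39, 0.73 and 0.65 at week 7, against -0.48, -0.84, -0.29 and -0.22 at week 1, and rose by 1.05 (adjusted p = 0.00723; 0.0737 without replicate 3). Another CD74 probe rose by 1.34 (adjusted p = 0.0621 without replicate 3), and 2 more were at 0.56 and 0.19. BLB1, a class II beta chain, rose by 0.70, while LAPTM5 and MARCO, a lysosomal protein of blood cells and a scavenger receptor of macrophages, fell by 0.64 and 0.67. None of the 3 passed without replicate 3 (0.57, -0.59 and -0.40, adjusted p = 0.36, 0.188 and 0.478). A second LAPTM5 probe was at 0.65, the opposite sign. Further BLB1 probes were at -0.26, -0.05 and 0.58 and did not pass. None of 20 interferon and antigen presentation genes passed at its brightest probe, where OASL and LY6E, interferon-induced genes, were at -1.06 and -0.75; of 4 further OASL probes, all lower, one fell by 0.71 (-0.46 without replicate 3, adjusted p = 0.45). Of 18 endothelial markers 13 were lower, with a median of -0.20 (-0.03 without replicate 3). ENG and ETS1 rose, by 0.50 and 0.52, both with overlapping groups, and were at 0.28 and 0.30 without replicate 3 (adjusted p = 0.403 and 0.468). Of 3 further ENG probes, none of which passed, 2 were lower, at -0.41 and -0.19. SLC32A1, a vesicular transporter of inhibitory transmitters, rose by 0.58 and NRXN3, a synaptic adhesion protein, fell by 0.41 among 15 markers of nerve cells and the posterior lobe, and only SLC32A1 passed without replicate 3 (0.67, adjusted p = 0.0238; NRXN3 -0.36, adjusted p = 0.258).

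The fat line, measured on the same ages with fat week 7 replicates 1, 3 and 4 against 4 fat week 1 arrays, was used to ask where the lean change differed. Fat week 7 replicate 4 was uneven over its surface. The medians of its grid blocks had an SD of 0.433, against at most 0.142 on any other array, and the median absolute deviation of its ratios was 0.515. No probe passed the test of the lean change minus the fat change (limma, smallest adjusted p = 0.289). An unadjusted p under 0.05 was found for 1468 probes, for 712 without lean week 7 replicate 3 and for 923 without fat week 7 replicate 4. Of the 830 probes called in the lean line 758 (91.3%) had the same sign in the fat line, against 64.2% of all tested probes. In the fat line 459 probes passed, 3.15% of all, and 179 were called in both lines: 21.6% of the lean calls and 39.0% of the fat calls. Over genes, the lean and the fat change correlated at 0.509, with the Cy5 pool and the probes in common. CCNB1 was at -1.63 in lean and -1.34 in fat birds, PBK at -1.84 and -1.37, HBA1 at -1.51 and -1.50, and HBBA at -1.59 and -2.24 (unadjusted p of the difference 0.0557).

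**Figure D5:**
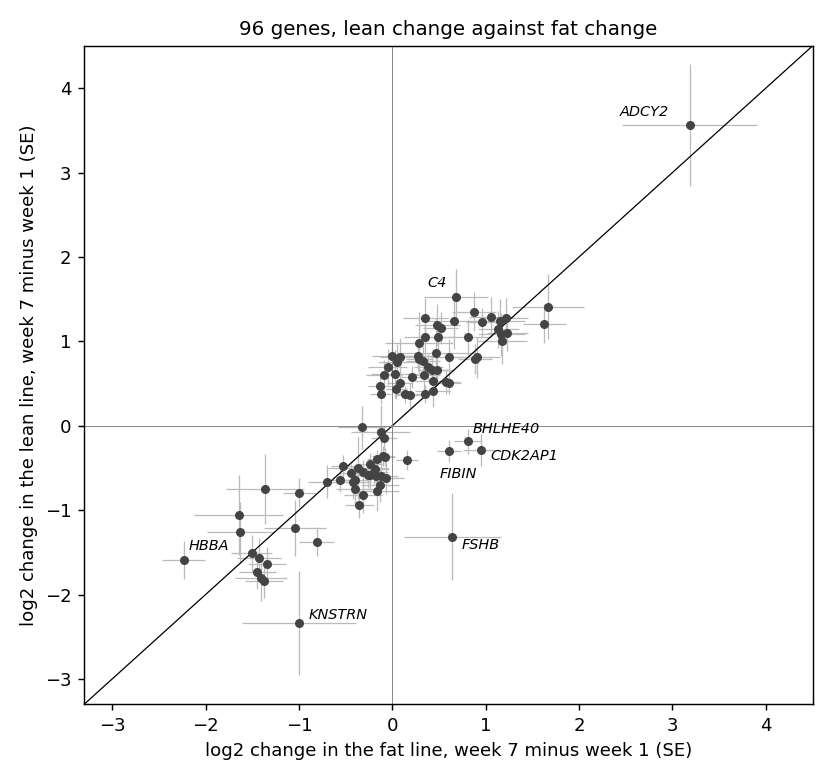
Log2 change from week 1 to week 7 in the lean line (vertical) against that in the fat line (horizontal) for the 96 named genes, with SE bars; the line marks equal changes. Many genes lie near the line, while others, such as FZD4 (0.83 in lean, 0.00 in fat) and GUCY1A3 (1.27 and 0.35), lie above it. BHLHE40, CDK2AP1, FIBIN, FSHB and NRXN3 lie below it, with a positive fat change and a negative lean one.

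The 3 genes with the smallest p for that difference rose in the fat line and did not pass in the lean one. BHLHE40, a transcriptional repressor tied to the clock, was at -0.53, -0.45 and -0.30 at lean week 7, against -0.13, 0.00, -0.37 and -0.46 at lean week 1, so the groups overlapped (-0.19, SE 0.15), while its fat change was 0.81. The difference was -0.99 (unadjusted p = 5.4e-05, adjusted p = 0.289), and the other BHLHE40 probe differed by 0.31 in the lean line. CDK2AP1, a partner of a cell cycle kinase, was at -0.29 in lean and 0.95 in fat birds, and FIBIN, named for a role in the zebrafish fin bud, at -0.30 and 0.61. FSHB was at -1.31 in lean and 0.64 in fat birds (unadjusted p of the difference 0.0131, adjusted p = 0.464). GUCY1A3 was at 1.27 and 0.35 (unadjusted p = 0.0107, adjusted p = 0.462). None of these differences passed after adjustment.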

How the data were processed

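Pituitary RNA was measured on 32 two-colour arrays. Per the file headers, scans were quantified with TIGR Spotfinder 2.2.4. The deposited file of each array gives intensity and local background of each spot in both dyes, not normalized, and other columns such as spot area and quality marks. The authors also deposited a table of log2 ratios of sample over pool, whose normalization is not given in the sources used here, nor is a genome build; it served as an alternative. On 1 fat line file the background was already subtracted and was added back.

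From the intensities, background was corrected with normexp (offset 50), ratios were normalized within arrays by loess, spots with bad quality marks were left out, and probes usable on at least 24 of 30 arrays and at least 2 arrays per group were tested. One group-means model over the 8 groups, without both files of the shared scan, was fitted in limma 3.58.1 (R 4.3.3) with 22 residual degrees of freedom, two-sided, with Benjamini-Hochberg adjustment over all 14568 probes; every adjusted p is from limma. The script was tested on simulated data. No test pairs samples by replicate number: same-numbered arrays deviated together at 0.0045, 0.038 and -0.015. P-values rest on the spread within groups pooled over all 30 arrays, of both lines and all ages, and not on that of the compared arrays alone. The small number of arrays limits precision. Gene names came from the platform's table, brought up to date through gene IDs where possible (8663 of 8775 named probes), and 5793 probes have no symbol. A gene stands for its brightest probe. Named genes are the 12 largest rises and 12 largest falls among called genes with no overlap between groups, all hormones, up to 4 called members per list (otherwise up to 2), and the 3 smallest p of the line difference. CHGA, CHGB, PCSK2, PAM, SCG2, MCM2, PCNA, CDK1, MAD2L1, CENPH, KNTC1, KIF20A, NCAPG, NCAPD2, POU1F1 and EEF1A2 were added after their values were seen. Members and lists were chosen with earlier results of these data known. Figures were drawn with matplotlib 3.10.9.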

Additional observations from a re-analysis of the deposited data

Results flagged for a closer look

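In the lean groups of 4 arrays, 13 values of the 96 named genes lay far from the other 3 of their group by Dixon's criterion. With 96 genes and 3 groups each (weeks 1, 3 and 5), chance alone marks about 1 group in 20.

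At week 1, KNSTRN, the kinetochore protein, was at 5.53 on replicate 1, against 0.66 to 1.11 on the others. TSHB was at -0.70 on replicate 2, against 0.03 to 0.10. On replicate 3 COL11A1 was at 0.68, GNAS at -0.72 and IGFBP7 at -0.99, each beyond the range of the other 3 arrays.

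Week 3 replicate 2 had CRHR2 at 1.70, against -0.39 to -0.11, and KAT7 at 0.31, against 0.51 on the other 3.

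Week 5 replicate 1 accounted for the remaining 6. ADCY2 was at 1.29 there, against -2.11 to -1.56, and MMP15 at 0.73, against -0.96 to -0.69. Low on the same array were IGFBP7 at -0.80, against -0.14 to -0.07, FABP5 at -0.84, H2AFY at -0.78 and EIF3J at -0.32. IGFBP7, FABP5 and H2AFY belong to the 55 probes that share the pattern of KLHL14. The cause was not tested.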

How the results depend on the processing

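Counts of probes called in the lean line (830) depended on the processing. They were 91 with scaling between arrays, 33 with scaling and no week 7 replicate 3, 435 with poor spots kept, 185 when only the 2 groups entered the model, 385 with the shared scan kept as lean, 452 with array weights, 214 in the authors' deposited table, 468 with 1 probe per gene, 0 with the header day as a fixed block and 1423 with the replicate number as a block. Same-numbered lean arrays of weeks 7 and 1 did not deviate together, so the replicate block is not read as a pairing of those arrays. Same-numbered arrays of the other groups were not compared in this way. The replicate block shared 823 probes with the 830. Leaving out 1 array gave 114 (without week 7 replicate 3) to 1787 (without week 7 replicate 1), with 1756 without week 7 replicate 4 and 353 to 569 without a week 1 array. No background correction, a normexp offset of 10, loess per grid block, median centring only, leaving out the dimmest 25% of probes, the lean line alone and a random day block gave 760, 809, 927, 1167, 1029, 802 and 769. The random day block and scaling without replicate 3 were added after the data were seen. So was loess per grid block without fat week 7 replicate 4, used only for the test of lean change minus fat change. The test of lean change minus fat change called 0 probes in every setting except when 1 array was left out, where it called 0 to 5 (5 without fat week 7 replicate 1, 2 without lean week 7 replicate 4 and 1 without lean week 1 replicate 2); with the replicate block it called 0.

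None of the 79 named genes that passed changed sign in any of the 24 settings that measured it, and none passed in every one, since the fixed day block ended every call. The 9 genes lost under that block alone were PBK, OPTC, CCNB1, TOP2A, HBBA, HBA1, SDHD, SCD5 and MCOLN2. The 79 were selected by their calls on these same arrays, so their kept signs are no independent check. Of the 17 that did not pass, 6 did so in some setting. Signs turned only for genes that did not pass: PRL to 0.026 without background correction, and -0.32 to 0.31 leaving out 1 array; CGA to 0.017 with scaling, 0.018 with the shared scan, 0.36 with the day block and 0.00057 in the authors' deposited table, and -0.30 to 0.32 leaving out 1 array; POMC to 0.0057 with scaling and 0.047 with scaling and no replicate 3, and -0.24 to 0.019 leaving out 1 array; and NR3C2 to -0.0013 with scaling and no replicate 3. The cause was not tested. With 7 arrays and 1 of them wider than the rest, a missed threshold does not show that a gene did not change.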

Other observations

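The scan filed as week 7 replicate 2 of both lines, which entered no test, had ADCY2 at -1.29, close to week 7 replicates 1 and 4 and not to replicate 3. Which line the scan belongs to cannot be told from the labels.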
